A study of Rattus norvegicus with 32 samples.

Results

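Itgb1, Itgam, Itgal and Itga11 are the 4 integrin chain genes described here, out of 23822 genes measured in rat hippocampus. They were chosen by name, as the common β chain (Itgb1, ENSRNOG00000010966), the leukocyte α chains αM and αL (Itgam, ENSRNOG00000019728, and Itgal, ENSRNOG00000017980) and a collagen-binding α chain (Itga11, ENSRNOG00000006723). Of 26 integrin chain genes listed, 16 could be matched to an identifier in the data, these 4 among them.

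Integrins are cell surface receptors made of an α and a β chain, which bind extracellular matrix or proteins on other cells and connect them through talin and kindlin to the actin cytoskeleton. The β1 chain pairs with many α chains and is found on nearly every cell type of the brain, whereas αM and αL pair with β2 (Itgb2) on leukocytes. In the brain αMβ2, also known as CD11b/CD18 or complement receptor 3, is carried by microglia, and αLβ2, known as LFA-1, is best known from lymphocytes and other blood-borne leukocytes, on which it binds ICAM-1. The α11 chain pairs with β1 and binds fibrillar collagen.

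Hippocampal RNA came from rats with the Alexander disease mutation in the astrocyte intermediate filament gene Gfap (genotype Gfap+/R237H, referred to as R237H) and from littermates with the genotype Gfap+/+ (WT), all on the Crl:CD(SD) background and without any treatment. Rats were collected at 21 days of age (P21) or 56 days of age (P56), the 32 rats forming 8 groups by genotype, sex and age with 4 rats in each, except that the females at P21 were 5 R237H and 3 WT. The mutation is heterozygous, at the endogenous gene and present in every cell. Libraries were polyA-selected and stranded, and whole hippocampus was used, so that in these bulk samples fewer cells of a type and less RNA per cell cannot be told apart.

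The sequence before the transcription start is shown for the members that have an entry in the promoter table of RefSeq, since the 4 genes did not change alike and 1 of them went the other way. Each line gives the 250 bases upstream of the start in the GRCr8 build on the plus strand, with GAGGAA, the core letters of the purine-rich box bound by the myeloid ETS factor PU.1, in capitals (TTCCTC where it lies on the opposite strand). The windows are chr1:192089342-192089591 for Itgam, chr19:73602027-73602276 for Itgb1 and chr8:72041182-72041431 for Itga11.
Itgam: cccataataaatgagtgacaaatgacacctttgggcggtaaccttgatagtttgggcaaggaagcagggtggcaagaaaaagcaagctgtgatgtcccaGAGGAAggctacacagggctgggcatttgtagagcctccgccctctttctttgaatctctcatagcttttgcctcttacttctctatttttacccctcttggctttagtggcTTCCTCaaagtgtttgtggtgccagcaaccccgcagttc
Itgb1: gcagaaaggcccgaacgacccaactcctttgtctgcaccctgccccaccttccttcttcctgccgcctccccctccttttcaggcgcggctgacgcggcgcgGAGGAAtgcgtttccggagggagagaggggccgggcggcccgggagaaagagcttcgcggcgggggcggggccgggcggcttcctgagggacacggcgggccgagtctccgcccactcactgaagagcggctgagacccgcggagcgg
Itga11: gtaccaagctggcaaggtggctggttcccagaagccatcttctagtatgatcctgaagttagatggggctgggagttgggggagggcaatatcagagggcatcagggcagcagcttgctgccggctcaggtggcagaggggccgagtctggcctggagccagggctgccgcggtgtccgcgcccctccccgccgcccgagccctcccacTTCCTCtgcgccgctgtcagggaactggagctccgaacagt
GAGGAA was found on either strand 2 times before Itgam, 1 time before Itgb1 and 1 time before Itga11, and 23.3% of all 33469 windows of this length hold it. The box GGGCGG, which 30.5% of the windows hold on either strand, was present 4 times before Itgb1, 2 times before Itgam and 1 time before Itga11. CG dinucleotides numbered 28 before Itgb1, 12 before Itga11 and 3 before Itgam. A match of letters is not a binding site, and no binding was measured. In the same annotation Itgam lies next to Itgax and Itgad, 2 further leukocyte α chain genes. Itgal is also on chromosome 1, with other protein-coding genes as its nearest neighbours, and its distance from Itgam was not measured.

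The libraries held 21580397 to 55544871 expected counts (median 46157271), and 2 were under 30000000 (R237H male P56 replicate 4 and R237H male P21 replicate 3). Gfap, the gene that carries the mutation, ran from 3120 to 6989 CPM in R237H rats and from 493 to 1082 CPM in WT rats. Ttr, a choroid plexus transcript, exceeded 500 TPM (transcripts relative to gene length and library total) in 5 libraries (761 to 5951, against 0.90 to 123 in the other 27): R237H male P56 replicate 4, R237H female P56 replicate 4, WT male P56 replicate 2, WT male P21 replicate 1 and WT female P21 replicate 3. Levels per rat are given as normalized CPM (counts relative to library size, scaled by the TMM method over all 32 rats), which is comparable between rats for a gene. Differences are log2 fold changes of R237H against WT with their standard error (SE), and a gene was called changed at a false discovery rate (FDR, Benjamini-Hochberg over all genes tested in edgeR's quasi-likelihood test) under 0.01.

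Itgb1, Itgam and Itgal rose in R237H rats of both sexes at both ages, and Itga11 fell in 3 of the 4 comparisons. No R237H rat overlapped a WT rat of the same sex and age in any of the 16 pairs of member and comparison, and 15 of the 16 passed the test. The members were chosen with earlier results of these data known, and their symbols came from the study's lists of changed genes. Calls were therefore likely beforehand, and the shares of all genes that moved are given as background only. Among P56 males 16.8% of 15097 genes were called increased and 11.1% decreased, among P56 females 17% of 15033 and 11.1%, among P21 males 12.4% of 14953 and 4.82%, and among P21 females 7.06% of 15150 and 0.752%. Complete separation of the genotypes was more frequent than a call: the R237H rats were all above the WT rats for 23%, 22.6%, 16.9% and 14.1% of genes in P56 males, P56 females, P21 males and P21 females, and all below for 19%, 18.1%, 13.7% and 7.37%. At P56 Itgb1 ranked 1181 and 1337 from the highest fold change in males and females, Itgam 319 and 440, and Itgal 103 and 86.

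**Figure D1:**
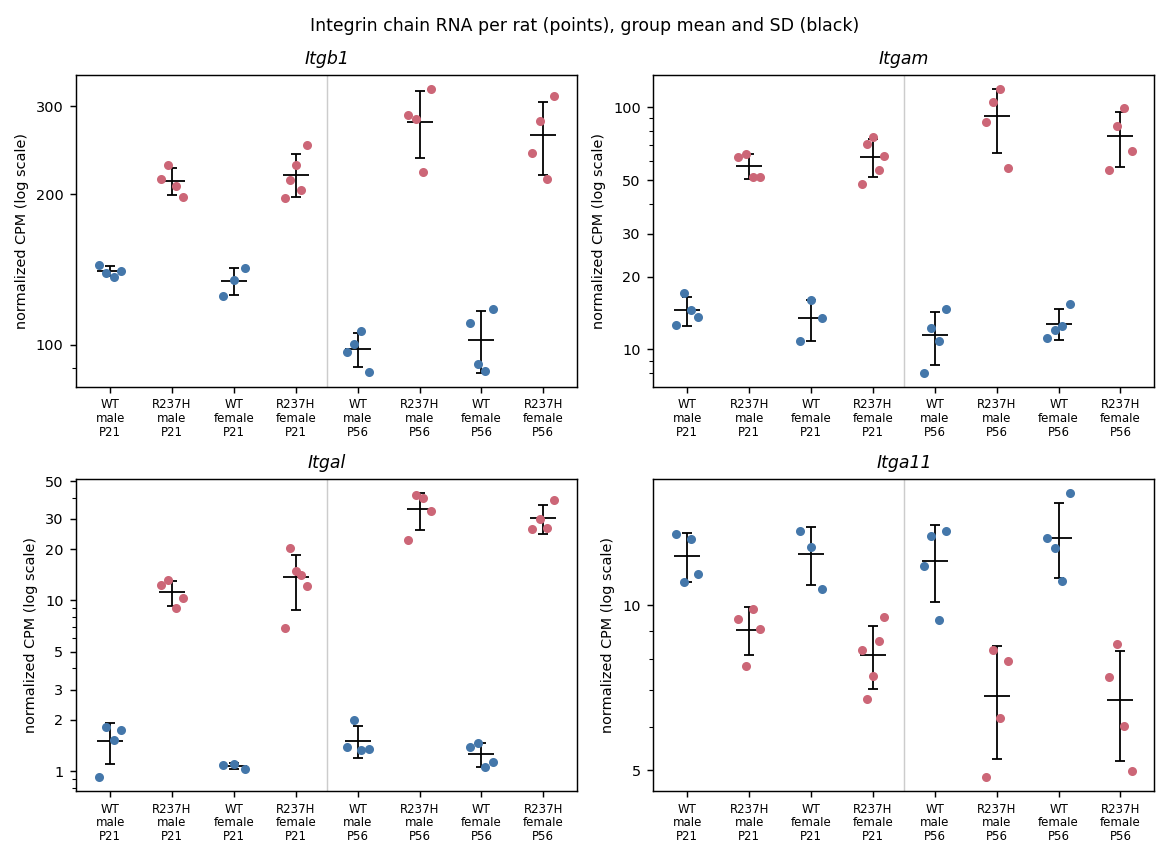
Normalized CPM (log scale, a separate range for each gene) of the 4 integrin chains in each of the 32 rats, by genotype, sex and age. Blue points are WT rats, red points are R237H rats, and black marks are group means with SD (n = 3 to 5). The red points lie above the blue points of the same sex and age for Itgb1, Itgam and Itgal and below them for Itga11.

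Itgb1, the common β chain, was the most abundant of the 16 integrin genes in every group when compared per length in TPM. In males at P56 the 4 R237H rats had 289, 282, 222 and 325 CPM and the 4 WT rats 96.8, 101, 107 and 88.2 CPM. The lowest R237H rat was thus at more than 2 times the highest WT rat. The log2 fold change was 1.54 (SE 0.13, FDR 1.29e-05), or 2.90-fold. In females at P56 the R237H rats had 242, 279.7, 214 and 314 CPM and the WT rats 111, 91.7, 88.9 and 118 CPM, a log2 fold change of 1.34 (SE 0.14, FDR 3.42e-05).

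At P21 the genotypes were closer for Itgb1. The R237H males had 215, 229, 208 and 198 CPM and the WT males 145, 139, 137 and 141 CPM. The WT males lay within a narrow band, and the log2 fold change was 0.60 (SE 0.055, FDR 5.96e-06), or 1.52-fold. In females the 5 R237H rats had 197, 213, 229, 204 and 251 CPM and the 3 WT rats 125, 135 and 142 CPM, with a log2 fold change of 0.72 (SE 0.096, FDR 5.85e-04). The WT mean was lower at P56 than at P21 (98.0 ± 7.74 against 140.4 ± 3.26 CPM in males, SD, n = 4), and the R237H mean was higher (279.4 ± 42.8 against 212 ± 13.2 CPM). Rats of the 2 ages were separate collections, which the design cannot tell apart from age, and these levels across ages were not tested by themselves.

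Itgam, the αM chain of complement receptor 3, rose by more. In males at P56 it was at 86.5, 105, 119 and 56.2 CPM in R237H rats and at 8.03, 12.2, 10.8 and 14.7 CPM in WT rats. The lowest R237H male was replicate 4, which is also a library of low depth and high Ttr. The log2 fold change was 3.03 (SE 0.25, FDR 1.32e-05), or 8.16-fold, and 3.20 was the highest value when any single rat was left out. In females at P56 the R237H rats had 55.0, 83.5, 99.1 and 65.97 CPM and the WT rats 11.1, 12.045, 12.6 and 15.5 CPM, a log2 fold change of 2.56 (SE 0.19, FDR 3.91e-06).

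The rise of Itgam was already present at P21. The R237H males had 62.1, 63.96, 51.4 and 51.3 CPM and the WT males 12.6, 17.2, 14.6 and 13.6 CPM, a log2 fold change of 1.99 (SE 0.11, FDR 9.03e-08). The R237H females had 48.2, 70.7, 75.5, 55.3 and 62.7 CPM and the WT females 10.8, 15.96 and 13.5 CPM, a log2 fold change of 2.23 (SE 0.18, FDR 2.91e-05). The WT levels of the 2 ages and sexes overlapped, between 8.03 and 17.2 CPM, and the R237H rats of P56 spread more widely than those of P21.

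Itgal, the αL chain of LFA-1, had the lowest level of the members in WT rats and the greatest fold change. WT rats had 39 to 102 counts each (median 56) and R237H rats 195 to 2365 (median 908), so that the WT level carries more counting error than that of the other members. In males at P56 it was at 22.6, 41.2, 39.6 and 33.2 CPM in R237H rats and at 1.38, 1.997, 1.33 and 1.35 CPM in WT rats. The log2 fold change was 4.51 (SE 0.24, FDR 1.13e-06), or 22.8-fold. The highest WT male, replicate 2, has the highest Ttr of all libraries. Without the 2 libraries over 500 TPM of Ttr in this comparison, a choice made after seeing the data, the log2 fold change was 4.695 (FDR 1.62e-05). In females at P56 the R237H rats had 26.3, 29.9, 26.5 and 38.8 CPM and the WT rats 1.38, 1.47, 1.05 and 1.13 CPM, a log2 fold change of 4.58 (SE 0.18, FDR 1.64e-07), or 23.9-fold.

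At P21 the R237H males had 12.2, 13.1, 9.05 and 10.3 CPM of Itgal and the WT males 0.93, 1.83, 1.53 and 1.74 CPM, a log2 fold change of 2.90 (SE 0.19, FDR 3.00e-07). The R237H females had 6.87, 20.3, 15.0, 14.1 and 12.1 CPM and the WT females 1.08, 1.10 and 1.02 CPM, a log2 fold change of 3.68 (SE 0.34, FDR 6.00e-05), or 12.8-fold. R237H replicate 1 was the lowest of these females for Itgal as well as for Itgam and Itgb1, and still lay above every WT rat of the study for Itgal. On log2(TPM + 1), where low values are compressed, the change of Itgal by limma was 1.74 in P21 males and 2.05 in P21 females, and 3.39 and 3.25 in P56 males and females.

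Itga11, the α11 collagen receptor chain, was the member that went down, and its differences were smaller. In males at P56 the R237H rats had 4.87, 8.30, 6.22 and 7.93 CPM and the WT rats 11.8, 13.4, 9.43 and 13.6 CPM. The gap between the closest rats of the 2 genotypes was small, and the log2 fold change was −0.80 (SE 0.20, FDR 0.00838). This call was lost when any of 7 of the 8 rats was left out (log2 fold changes of −0.91 to −0.67, FDR 0.0106 to 0.0255), WT replicate 3 being the exception. In females at P56 the R237H rats had 7.41, 8.49, 6.03 and 5.00 CPM and the WT rats 13.3, 12.8, 11.1 and 16.04 CPM, a log2 fold change of −0.996 (SE 0.18, FDR 0.00147) that held with any rat left out.

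At P21 the R237H males had 9.46, 7.77, 9.84 and 9.04 CPM of Itga11 and the WT males 13.5, 11.045, 13.2 and 11.4 CPM. The log2 fold change was −0.45 (SE 0.098, FDR 0.00501), and the call was lost without WT replicate 1 (−0.40, FDR 0.0154), R237H replicate 2 (−0.38, FDR 0.0107), WT replicate 3 (−0.41, FDR 0.0188) or R237H replicate 4 (−0.45, FDR 0.0154). The R237H females had 8.30, 6.74, 7.44, 8.61 and 9.51 CPM and the WT females 13.7, 12.8 and 10.7 CPM, with a log2 fold change of −0.60 (SE 0.14) whose FDR of 0.0167 missed the threshold. Without R237H replicate 5 it was −0.66 with an FDR of 0.0096. The direction of Itga11 was the same under every scaling tried. On deposited TPM the median log2 fold change over all genes was itself 0.40 in males and 0.26 in females at P56, against −0.006 and −0.034 on TMM-scaled counts, and Itga11 was −0.41 (FDR 0.259, limma) in males and −0.70 (FDR 0.0168) in females on log2(TPM + 0.1), which is −0.81 and −0.96 relative to that median.

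The order of the members per length was Itgb1, Itgam, Itga11 and Itgal in every WT group and Itgb1, Itgam, Itgal and Itga11 in every R237H group. In WT males at P56 the TPM were 40.9 ± 7.97 for Itgb1, 4.14 ± 1.20 for Itgam, 3.54 ± 1.06 for Itga11 and 0.52 ± 0.20 for Itgal (mean ± SD, n = 4). Itgam and Itga11 differed there by less than their spread. In R237H males at P56 they were 155.5 ± 25.4, 43.7 ± 12.6, 2.58 ± 0.57 and 15.1 ± 3.48 TPM in the same order. Among the 16 integrin genes Itgam moved from the 7th place in each WT group to the 4th in each R237H group, and Itgal from place 13 or 14 to a place between 7 and 10. Itga11 moved from a place between 8 and 10 to a place between 11 and 14.

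Ratios within each library show how far the chains moved apart, and do not depend on the scaling between libraries. Each difference is of log2 TPM ratios, R237H minus WT, with an exact two-sided permutation test, whose smallest possible p is 0.0286 with 4 rats against 4 and 0.0179 with 5 against 3. Adjusted over the 24 ratio tests, every difference at the smallest p of its design had a value of 0.0327, and the other 3 values are given beside their p. Itgal rose relative to Itgam in all 4 comparisons: by 1.499 in males at P56 (p = 0.0286, exact permutation), 2.06 in females at P56 (p = 0.0286, exact permutation), 0.95 in males at P21 (p = 0.0286, exact permutation) and 1.37 in females at P21 (p = 0.0179, exact permutation). In males at P56 the transcripts of Itgal per transcript of Itgam were 0.24, 0.37, 0.31 and 0.55 in R237H rats and 0.16, 0.15, 0.12 and 0.085 in WT rats. In females at P56 they were 0.44, 0.33, 0.25 and 0.55 against 0.12, 0.11, 0.077 and 0.067. The genotypes did not overlap in either sex.

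Relative to Ptprc, which encodes the pan-leukocyte phosphatase CD45, Itgal rose as well, by 1.04 and 1.504 on the log2 scale in males and females at P56 and by 1.12 and 1.57 at P21, each at the smallest p of its design. Relative to Itgb2, the β2 partner of both leukocyte chains, Itgal rose by 2.29 and 2.72 at P56 and by 1.53 and 1.92 at P21, again each at the smallest p. Itgam rose relative to Itgb2 by 0.79 in males at P56 (p = 0.0286, exact permutation) and by 0.57 in males at P21 (p = 0.0286, exact permutation). In females the differences were 0.65 at P56 (p = 0.0571, exact permutation, adjusted 0.0623) and 0.55 at P21 (p = 0.0714, exact permutation, adjusted 0.0745), with overlapping rats. Relative to Csf1r, the receptor on which microglia depend, Itgam rose by 0.70 in P56 males, 0.52 in P21 males and 0.57 in P21 females, each at the smallest p, and in females at P56 the difference was 0.46 (p = 0.0857, exact permutation, adjusted 0.0857). With 1 rat left out, a test added after seeing the data, the p for Itgam to Csf1r reached 0.0571 (exact permutation) in each of these 3 comparisons, as did that for Itgal to Ptprc in P56 males, and that for Itgam to Itgb2 in P56 males reached 0.0857 (exact permutation). Itga11 fell relative to its only known partner Itgb1 by 2.35 and 2.37 in males and females at P56 and by 1.04 and 1.31 at P21, each at the smallest p.

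**Figure D2:**
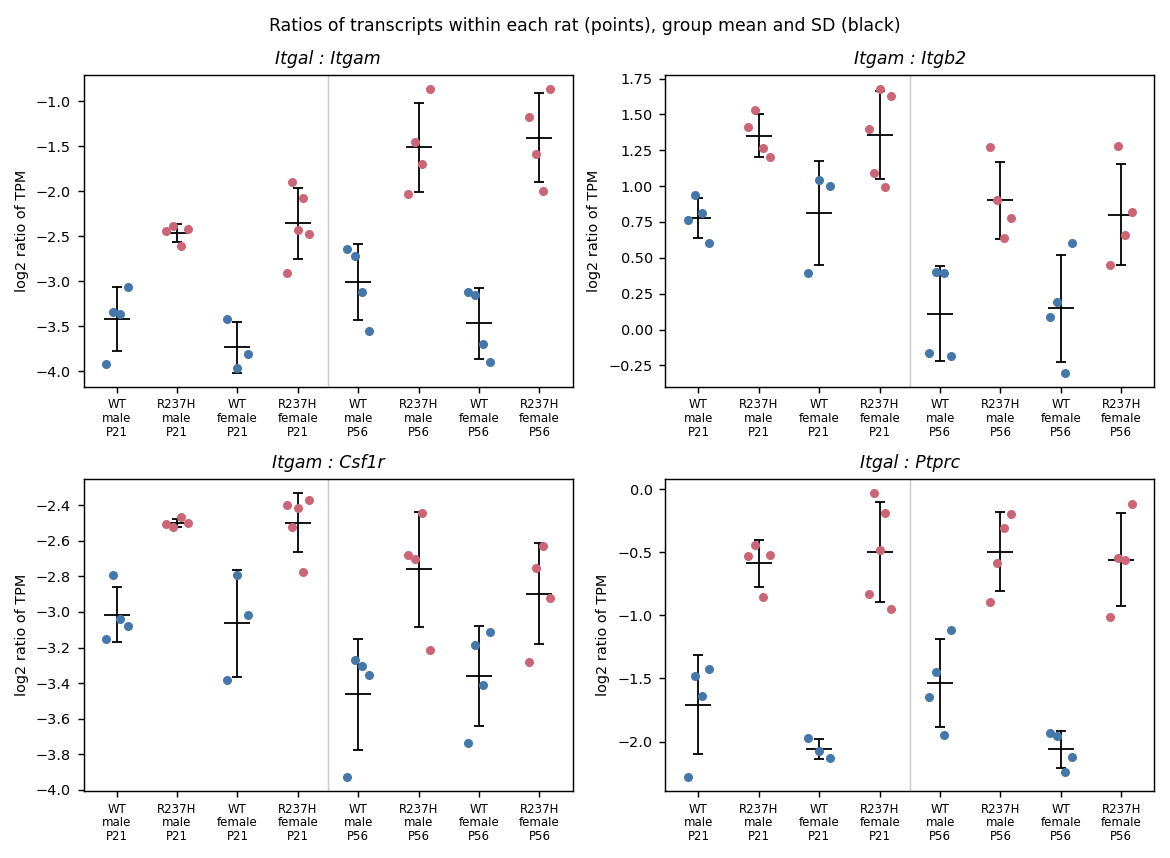
Log2 ratio of TPM within each rat for Itgal to Itgam, Itgam to Itgb2, Itgam to Csf1r and Itgal to Ptprc, by genotype, sex and age. Blue points are WT rats, red points are R237H rats, and black marks are group means with SD (n = 3 to 5). In the panels for Itgal the red points lie above the blue points of the same sex and age. Red and blue points overlap for Itgam to Itgb2 in females of both ages and for Itgam to Csf1r in females at P56.

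Whether the genotype difference itself differed between the ages was tested in the 16 rats of a sex. In males it was greater at P56 by 0.91 on the log2 scale for Itgb1 (SE 0.14, FDR 2.96e-04) and by 1.59 for Itgal (SE 0.31, FDR 0.00211), where 5.81% of 15370 genes had a positive and 4.31% a negative interaction that was called. For Itgam the interaction was 1.02 (SE 0.28) with an FDR of 0.0164, and for Itga11 −0.38 with an FDR of 0.242. The interaction of Itgam was called without WT male P56 replicate 4 (1.16, FDR 0.00821) or without R237H male P56 replicate 4 (1.19, FDR 0.00295). In females no member was called, with 0.63 for Itgb1 (FDR 0.0359), 0.33 for Itgam (FDR 0.508), 0.90 for Itgal (FDR 0.153) and −0.39 for Itga11 (FDR 0.36), against 1.49% of 15504 genes called positive and 0.658% called negative. Without R237H female P56 replicate 3 the interaction of Itgb1 in females was 0.76 (FDR 0.00947).

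The sexes were not found to differ in the genotype effect. At P56 the difference between females and males was −0.16 for Itgb1 (SE 0.19), −0.44 for Itgam, 0.10 for Itgal and −0.16 for Itga11, each with an FDR of 0.999, and at P21 it was 0.78 for Itgal (SE 0.39), 0.24 for Itgam, 0.11 for Itgb1 and −0.16 for Itga11, each with an FDR of 1. By edgeR 0 of 15419 genes at P56 and 0 of 15361 genes at P21 were called for this interaction (0%), with 310 and 458 genes at an unadjusted p under 0.05, and DESeq2 also called 0. At P21 all males shared a number in their sample titles that no female had, so sex cannot be told apart there from what that number marks.

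The other integrin genes place the members within their family, with the reservation that symbols were known only for 3289 of the 23822 identifiers, taken from the study's lists of changed genes, so that a gene with a symbol had changed more often than others. This reservation applies to every list of ligands, adaptors and cell markers below. Of the 16 integrin genes, 13 rose and 1 fell in P56 males, 14 rose and 2 fell in P56 females, 13 rose and 1 fell in P21 males, and 8 rose and 0 fell in P21 females, where DESeq2 called 2 decreased and 2 were lower at an unadjusted p under 0.05. Over all genes tested, 16.8% were called increased in P56 males, 17% in P56 females, 12.4% in P21 males and 7.06% in P21 females. Those called decreased were 11.1%, 11.1%, 4.82% and 0.752% in the same order, so the 1 and 2 decreased at P56 were near that share. In P21 females 3820 of 15150 genes had an unadjusted p under 0.05. The median log2 fold changes of the 16 integrin genes were 1.501, 1.404, 0.87 and 0.81, against medians between −0.034 and −0.006 over all genes tested. The count in females at P21 was 5 without WT replicate 1.

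Itgax, the αX chain of CD11c, was nearly absent from WT rats, with 0 to 29 counts each, and had 15 to 409 counts in R237H rats. At P56 it was at 2.65, 6.99, 5.57 and 8.84 CPM in R237H males and at 0.10, 0.57, 0.050 and 0 CPM in WT males, a log2 fold change of 4.97 (SE 0.80, FDR 7.65e-04). Itgax passed the filter on low counts only through the R237H rats, so these values are a description. With at least 10 counts required in every rat it was not tested, and 12 of the remaining 15 integrin genes rose in P56 males. Itgb2 rose by 2.25 in males (FDR 3.54e-04) and 1.89 in females (FDR 8.92e-05) at P56. Of the α chains that pair with β1, the fibronectin receptor chain Itga5 rose by 2.17 and 2.08 at P56 in males and females, the tenascin and osteopontin receptor chain Itga9 by 1.47 and 1.37, and the laminin receptor chains Itga6 by 1.24 and 1.01 and Itga7 by 0.51 and 0.66. Itga5 and Itga9 were, with Itgb1 and Itgal, the 4 integrin genes whose interaction of age and genotype was called in males, by 1.40 for Itga5 (FDR 0.00769) and by 0.98 for Itga9 (FDR 0.00828). In females 0 of the 16 were called by edgeR, 3 by DESeq2 and 9 at an unadjusted p under 0.05, all of the 9 positive. Over all 15504 genes tested there, 3522 had an unadjusted p under 0.05 in either direction. DESeq2 called 616 of them positive and 355 negative.

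Among the αv partners, Itgb3 rose by 2.42 and 2.44 and Itgb5 by 1.38 and 1.44 in males and females at P56, and Itgav by 1.23 and 0.94. Itgb8, which together with αv activates latent TGF-β, had a log2 fold change below 0 in all 4 comparisons, with a call in females at P56 (−0.59 on the log2 scale, SE 0.084, FDR 3.19e-04) and an FDR of 0.113 in males at P56, where the rats overlapped. Itgb4, the partner of α6 in hemidesmosomes, rose in females at P56 by 0.73 and in males at P21 by 0.95, and its FDR was 0.0179 in males at P56. Itga11 and Itgb8 were the only integrin genes with a symbol that were called decreased in any of the 4 comparisons. Of 4 collagen-binding α chains listed, Itga11 alone had a symbol.

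**Figure D3:**
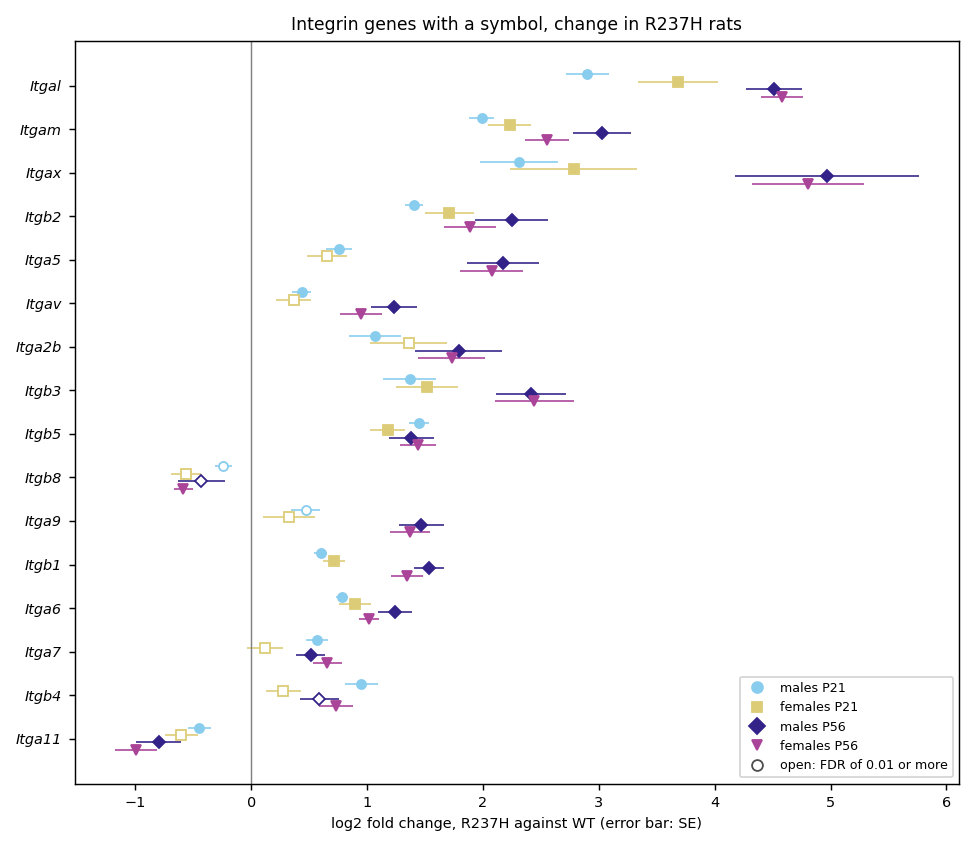
Log2 fold change of R237H against WT with its SE for the 16 integrin genes with a symbol, in males and females at P21 and P56. Filled marks have an FDR under 0.01 and open marks do not. Itgal, Itgam, Itgax and Itgb2 lie to the right in all 4 comparisons, and Itga11 and Itgb8 lie left of zero.

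Ligands of the leukocyte integrins were matched for 5 of 11 listed genes. Icam1, the main ligand of LFA-1, rose by 3.12 in males at P56 (SE 0.22, FDR 5.37e-06), 2.73 in P56 females, 2.204 in P21 males and 2.01 in P21 females. C3, whose fragment iC3b binds complement receptor 3, rose by 5.77, 4.66, 2.94 and 4.47 in the same order, and Vcam1, the endothelial and glial ligand of the α4 integrins, by 1.56, 1.21, 1.13 and 1.08. The fibrinogen chain gene Fgg was called increased at P56, and Thy1, a neuronal surface protein, decreased at P56 by 0.95 in males (FDR 2.69e-04) and by 0.71 in females (FDR 0.00112).

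Those matrix ligands of the β1 and αv integrins that had a symbol moved mostly upward. Of 16 listed, 14 had a symbol, of which 11 rose and 2 fell at P56 in each sex, 9 rose and 1 fell in P21 males, and 7 rose and 1 fell in P21 females. The share called increased over all genes tested was 16.8% and 17% in males and females at P56, and 12.4% and 7.06% at P21. Spp1, the gene of osteopontin, rose by 7.30 in males at P56 (SE 0.38, FDR 9.96e-07), the tenascin gene Tnc by 3.41, and the fibronectin gene Fn1 by 3.62. The laminin chain Lamb1 and vitronectin (Vtn) fell at P56, by 0.52 and 0.996 in males.

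The fibrillar collagens, among which are the ligands of α11β1, were mixed. The list of 10 also named collagen IV, but the 6 genes with a symbol were all fibrillar. Of these, 2 rose and 1 fell in P56 males, 1 fell in P56 females, 2 rose and 1 fell in P21 males, and 2 fell in P21 females. Over all genes tested, 16.8%, 17%, 12.4% and 7.06% were called increased and 11.1%, 11.1%, 4.82% and 0.752% decreased in the same order. In P56 males Col11a1 rose by 1.17 (FDR 7.26e-04) and Col5a1 by 0.765 (FDR 0.00141). Col5a1 also rose in P21 males, by 0.538 (FDR 0.00466), and Col3a1 fell in P21 females by 0.732 (FDR 0.00607). Col11a2 was lower in all 4 comparisons, by 3.52 in males (FDR 1.09e-04) and 3.70 in females at P56 (FDR 3.62e-05), whereas Col1a2, a chain of collagen I, rose in P21 males by 0.60 (FDR 0.00773) and was not called in the other 3 comparisons, with values of 0.086 in P56 males, 0.28 in P56 females and −0.18 in P21 females.

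Markers of microglia and of monocytes and border macrophages mostly rose, among those with a symbol. Of 12 microglia markers listed, 9 had a symbol, and their summed level was 918 to 1312 CPM in R237H against 344 to 422 CPM in WT males at P56, 947 to 1152 against 351 to 426 CPM in females at P56, 741 to 874 against 365 to 377 CPM in P21 males and 692 to 931 against 333 to 343 CPM in P21 females. Of the 9, 7 rose at P56 in each sex, 9 in P21 males and 7 in P21 females, and 0 were lower even at an unadjusted p under 0.05. The symbols came from the study's lists of changed genes, so these 9 were likelier to have changed than the markers left unmatched. Over all genes tested, 16.8% were called increased in P56 males, 17% in P56 females, 12.4% in P21 males and 7.06% in P21 females. Csf1r rose by 2.30 in males at P56 and Cx3cr1 by 1.75, whereas the value for Tmem119 was 0.50 (FDR 0.157). Of 8 monocyte and border macrophage markers, 7 had a symbol, and 6 rose in each comparison, with sums of 78.1 to 169 against 7.59 to 22.1 CPM in males at P56 and 93.5 to 149 against 7.98 to 18.01 CPM in females at P56. Plac8 rose by 6.14 in males at P56 (FDR 7.01e-06). Of 8 astrocyte markers 6 had a symbol. At P56 1 of them rose and 1 fell in each sex, with median log2 fold changes of −0.027 in males and 0.009 in females. The 1 that rose was Gfap, which carries the mutation (2.85 in males, 2.89 in females), and Gja1 fell (−1.16 and −1.225). Their sums, which include Gfap, were 6811 to 9096 CPM in R237H against 2938 to 4227 CPM in WT males. In females at P56 they were 7444 to 8644 against 3115 to 3727 CPM. At P21 3 rose and 2 fell in males and 1 rose and 1 fell in females, with medians of 0.33 and 0.323.

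Lymphocyte and neutrophil markers were matched too rarely to describe those cells. Of 12 T-cell markers only Cd6 and Icos had a symbol, with sums of 6.87 to 10.6 CPM in R237H against 1.02 to 2.43 CPM in WT males at P56, and Cd6 rose in all 4 comparisons. Of 7 B-cell markers only Blnk and Cd22, both also present in microglia, had one and rose in all 4 comparisons, and of 8 neutrophil markers Csf3r rose in all 4 and Cxcr2 in females at P56. None of the 6 NK-cell markers and none of the 7 endothelial markers had a symbol. The part of any of these cells in the rise of Itgam and Itgal was not tested. Neuron markers, 3 of 9 with a symbol, summed to 194 to 332 CPM in R237H against 423 to 900 CPM in WT males at P56 and to 192 to 363 against 314 to 692 CPM in females at P56. Rbfox3 and Wfs1 fell in P56 males, and in P56 females the 3 markers had values of −0.71 to −0.51 with FDRs of 0.0565 to 0.103. At P21 the sums overlapped, at 266 to 402 against 280 to 391 CPM in males and at 289 to 446 against 290 to 491 CPM in females. The part of neurons in the lower level of Itga11 was not tested at either age. Fibroblast and mural markers, 4 of 9 with a symbol, summed to 225 to 329 CPM in R237H against 120 to 199 CPM in WT males at P56, but their median log2 fold change there was −0.56. Of the 4, Tagln rose by 2.31 and Vtn fell by 0.996, while Acta2 (−0.96, FDR 0.0138) and Pdgfrb (−0.17, FDR 0.26) were not called.

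The genes with the profile most like each member were sought among 2991 genes with a symbol and a mean of at least 50 counts, by the root mean square difference of log2 levels, centred on each gene's mean, over the 32 rats. The profile includes the genotype difference, so the likeness is a description. Edem1 (0.12), Pole (0.14) and Snx18 (0.15) were nearest to Itgb1, whose own spread was 0.57. Pld4 (0.27), Myo1f (0.29) and Dock2 (0.31) were nearest to Itgam, whose spread was 1.25. Nqo1 (0.36), Csf2rb (0.37) and Casp4 (0.37) were nearest to Itgal, whose spread was 1.99. Gcnt4 (0.21), Adcy1 (0.22) and Lgi1 (0.23) were nearest to Itga11, whose spread was 0.43, so that this likeness was the loosest relative to the spread of the member.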

How the data were processed

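Hippocampal polyA RNA of 32 rats was sequenced. Reads were trimmed (Skewer) and aligned (STAR) by the authors, who ran RSEM for the gene estimates and deposited expected counts per gene, which are estimated counts without scaling, and a table of TPM, which the authors obtained from RSEM per library. The genome build is not given in the sources used here. Of the expected counts 5.68% were not whole, although none was for an integrin gene with a symbol.

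Expected counts were rounded and tested in R 4.3.3 with edgeR 4.0.16 (filterByExpr, TMM, quasi-likelihood F-test) to compare R237H with WT rats separately by sex and age, and for the interactions of genotype with sex and with age. FDR values are Benjamini-Hochberg values over all genes tested, the threshold was 0.01, and SE was the log2 fold change divided by the root of F. Ratios of TPM were compared by exact two-sided permutation tests. Alternatives tried were DESeq2 1.42.0 and the likelihood-ratio test, limma 3.58.1 on log2(TPM + 0.1) and log2(TPM + 1), RLE size factors, other filters on low counts (none, or 10 counts in each rat), a looser FDR of 0.05, joint models of all 32 rats or of both sexes, a block by title number, and each rat left out. Fits were tested on simulated counts with 50 genes changed by each fold. With the design of P56 males 1 was recovered at 1.5-fold, 24 at 2-fold, 22 at 0.5-fold and 49 at 4-fold (FDR under 0.01). With that of P21 females 22, 35, 42 and 50 were recovered in the same order. Far fewer genes were changed in these simulations than were called in the data, which makes the same FDR threshold stricter there. The numbers recovered therefore do not give the power of the fits to the data. A gene without a call may still have changed by such smaller amounts. Python 3.11.15, pandas 2.3.3, numpy 2.4.6 and matplotlib 3.10.9 made tables and figures.

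Symbols came from the name column of the study's supplementary tables (3289 of 23822 identifiers, 13.8%). The other columns of these tables, which hold the authors' fold changes and p-values, were not used. Named genes are the 4 members, the integrin chains, at most 4 genes of each other list per comparison by FDR, and the 3 nearest profiles. Tmem119, Fgg, Lamb1, Vtn and Ptk2b are named outside this rule, chosen after their values were seen. The members and the lists were chosen with earlier results of these data known. The labels do not say which rats shared a litter. Depth was 21580397 to 55544871 counts per library, and a rat had from 39 (Itgal, WT) to 16333 (Itgb1, R237H) counts of a member. Counting error was not separated from the variation between rats.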

Additional observations from a re-analysis of the deposited data

Results flagged for a closer look

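The genotype difference of Itgb1 was greater at P56 than at P21 in males, by 0.914 on the log2 scale (SE 0.135, FDR 2.96e-04, edgeR), and was flagged because the interaction itself was tested and called. In females it was 0.633 (FDR 0.0359). Whether the interaction differs between the sexes was not tested.

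The genotype difference of Itgal was also greater at P56 in males, by 1.592 (SE 0.311, FDR 0.00211, edgeR), and was 0.902 in females (FDR 0.153). For both genes the ages were collected separately, and age and collection cannot be told apart.

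Itgal in WT male P56 replicate 2 was at 1.997 CPM, apart from the other 3 WT males of that age at 1.33 to 1.38 CPM, with a gap of 0.917 of the group's range. It was flagged as a rat far from the others of its group, and chance flags about 1 in 20 groups. The same library had the highest Ttr of all 32, at 5951 TPM, and the part of choroid plexus in this value was not tested.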

How the results depend on the processing

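Itgb1, Itgam and Itgal stayed increased in all 4 comparisons under every alternative and with any rat left out, although Itgal was smaller on log2(TPM + 1), at 3.386, 3.252, 1.742 and 2.049 in P56 males, P56 females, P21 males and P21 females against 4.51, 4.579, 2.902 and 3.684. The 24 ratio differences kept their direction, and their side of an adjusted p of 0.05 with 0.1 TPM added or from expected counts. In an exact permutation test with each rat left out, added after seeing the data (smallest p 0.0286 or 0.0476), 16 of 192 unadjusted p-values changed their side of 0.05. By this exact test they were Itgam to Itgb2 in P56 males without R237H replicate 1 (0.664, p = 0.0857), Itgal to Ptprc in P56 males without R237H replicate 3 or 4 or WT replicate 3 (0.98, 0.945 and 0.908, p = 0.0571), and Itgam to Csf1r in P56 males without any 1 WT rat (0.55 to 0.768, p = 0.0571), in P21 males without R237H replicate 1, 3 or 4 (0.505 to 0.519, p = 0.0571), in P21 females without R237H replicate 1, 2, 3 or 5 (0.536 to 0.574, p = 0.0571) and in P56 females without R237H replicate 1 (0.591, p = 0.0286). The cause of each change below was not tested. Itga11 at P56 lost its call on log2(TPM + 0.1) and log2(TPM + 1) with limma in males (−0.408 and −0.32) and females (−0.695 and −0.537), in males also without the 2 libraries of high Ttr (−0.817, FDR 0.0296, an alternative chosen after seeing the data), and with rats left out ran from −0.906 to −0.665 in males. In males at P21 it lost its call on both TPM scales (−0.429 and −0.342) and with all 32 rats in one model (−0.448, FDR 0.0671), and ran from −0.496 to −0.384 with rats left out. In females at P21 it was called at an FDR under 0.05 (−0.603), by the likelihood-ratio test (−0.604), DESeq2 (−0.619), all 32 rats (−0.612) and both sexes together (−0.517), and ran from −0.707 to −0.522 with rats left out. The interaction of age and genotype was called at an FDR under 0.05 and by DESeq2 for Itgb1 in females (0.633 and 0.658; 0.573 to 0.756 with rats left out) and for Itgam in males (1.022 and 1.031, and 1.021 by the likelihood-ratio test; 0.865 to 1.188 with rats left out). That of sex and genotype for Itgal at P56, which was not called, ran from −0.07 to 0.212 with rats left out and was negative without R237H male replicate 1 (−0.044), WT male replicate 2 (−0.07) or R237H female replicate 4 (−0.031).

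Integrin genes called decreased were 0 on both TPM scales at P56 in each sex and in P21 males, 0 without the high-Ttr libraries in males at P56 and 0 with all 32 rats in males at P21. They were 2 with both sexes together in males at either age and with all 32 rats in males at P56, 2 at an FDR under 0.05 or by DESeq2 in P21 males, and 2 in P21 females under all of these and the likelihood-ratio test. With rats left out they ran from 0 to 1 in males of either age and from 0 to 2 in P21 females, where integrin genes called increased ran from 5 to 9.

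Whether the numbers in the titles pair the rats was not settled by correlating the deviations of R237H and WT rats from their group means. Rats with the same number correlated at −0.0174 to 0.223 in 4 pairs of males at P56, at 0.0662 and 0.465 in females at P56 and at 0.0243 to 0.393 in females at P21. The value of 0.465 was the highest of all pairs, and pairs with different numbers reached 0.311, in males at P56. Not every rat correlated best with its own number. When that number was fitted as a replicate block, Itga11 in females at P56 was −0.871 (FDR 0.0108), integrin genes called decreased there were 0 and those called increased in females at P21 were 4. The block took all genes called decreased from 1677 to 1103 in males at P56, from 1676 to 552 in females at P56 and from 114 to 26 in females at P21, took those called increased from 2531 to 2145, from 2550 to 1518 and from 1070 to 391 in the same order, and changed no other call of a member. No block could be fitted for males at P21, where the rats share 1 number.

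Over all genes, the counts called decreased moved most: in males at P56 they were 1677, and between 189 (limma on TPM) and 3607 (both sexes together) otherwise, in females at P56 1676, and between 291 and 3607, in P21 males 721, and between 180 and 1672, and in P21 females 114, and between 26 and 1066. Those called increased in P21 females were 1070, and between 391 and 2393.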

Other observations

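Genes that activate integrins or tie them to actin were matched for 18 of 30 listed, and 16 rose and 1 fell in males at P56, 15 rose and 1 fell in females at P56, and 14 and 13 rose in males and females at P21 (edgeR, FDR under 0.01), with median log2 fold changes of 1.37, 1.22, 0.81 and 0.93 in that order. Over all genes tested 16.8%, 17%, 12.4% and 7.06% were called increased in the same order. Because symbols came from the study's lists of changed genes, these counts and medians do not describe the 30 as a whole. Fyb1, the adaptor ADAP of T cells and myeloid cells, rose by 3.89 in males at P56 (SE 0.23, FDR 1.72e-06), and Fermt3, the kindlin of blood cells, by 2.48 (SE 0.18, FDR 5.00e-06). The filamin gene Flna rose by 2.79 and the kinase gene Syk by 1.52. Tln1, the gene of talin that binds the tails of β chains, rose by 1.59 in females at P56 (FDR 4.31e-07). Ptk2b, a focal adhesion kinase relative also found in neurons, fell by 0.90 in males at P56 (FDR 2.20e-04) and by 0.67 in females at P56 (FDR 3.20e-04).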
